A study of Arabidopsis thaliana with 18 samples.

Results

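The comparison described here sets root tips of Arabidopsis thaliana 3 h after their tip was cut off against uncut root tips, both without inhibitor. It takes 6 of the 18 libraries of the study, 3 of mock cut tips and 3 of mock uncut tips, chosen by their labels, and all 22093 loci of the count table. Of these loci, 16354 passed edgeR's expression filter and were tested. Seedlings were 7 days old, and the cut was made 120 µm above the quiescent centre. Both groups were mock treated, that is without L-Kyn, the inhibitor of auxin synthesis that other libraries of the study received. The labels give 3 h after the cut for the cut tips and no time for the uncut tips, and they name no strain and no batch. The text of the labels on the treatment is incomplete, and whether a cut sample held only the stump or also tissue below the cut is not known here.

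The Arabidopsis root tip holds the quiescent centre, a small group of rarely dividing cells, with stem cells around it, the root cap below it and a zone of dividing cells above it. When the tip is removed above the quiescent centre, the remaining stump can rebuild a complete tip, a process known to need auxin and stem cell regulators. Wounded plant tissue is also known to respond quickly with calcium, jasmonate and ethylene signalling.

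Libraries were made with a 3′ kit, and values are CPM (read counts scaled by the reads on genes and by TMM factors). Reads on genes were 3223903, 2198427 and 3082231 in mock uncut 1 to 3 and 2148525, 1719910 and 1784083 in mock cut 1 to 3. A floor of 3 counts is thus 0.910 to 1.81 CPM, for counting error only. Mock uncut 3 stood apart. Across tested genes, the Spearman correlation of mock uncut 1 and 2 was 0.939, that of mock uncut 3 with them 0.857 and 0.808, and the correlations among the cut libraries were 0.838 to 0.890. Cut libraries correlated with uncut ones at 0.744 to 0.856, a range that holds the 0.808 of mock uncut 2 and 3. Mock uncut 3 stands in the last 9 columns of the table with all 3 h libraries, while mock uncut 1 and 2 stand in the first 9 columns with all 6 h libraries. The order is no labelled batch, but some genes followed it, so each result was also read against mock uncut 3 alone. The labels do not state whether replicates are separate pools of plants, and the p-values therefore reflect the variation among these libraries alone, part of which may be technical. These are bulk samples, in which fewer cells of a type and less RNA per cell cannot be told apart.

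At 3 h after the cut, 653 genes were called higher, 3.99% of those tested, and 965 were called lower, 5.9% (edgeR's quasi-likelihood test, Benjamini-Hochberg adjusted p under 0.05). The median log2 fold change of all genes tested was −0.02. The 3 cut libraries did not overlap the 3 uncut libraries for 603 of the higher and 840 of the lower genes. Among all 16354 genes tested, called or not, 1665 had no overlap with cut tips higher and 2059 with cut tips lower. All 3 cut libraries lay beyond mock uncut 3 for 623 of the higher genes and 850 of the lower genes. A fit with a term for the column set, which rests on mock uncut 3 against 1 and 2, called 320 of the higher and 444 of the lower genes in the same direction. This is the fit meant below by the term for the column set, and it omits replicate 2 of the L-Kyn cut 3 h group, in which RGF3, a gene at 0 in the mock cut libraries, was at 63.4 CPM against 0.210 CPM in the other library of its group. No group but mock uncut spans both column sets, so a term fit in effect compares the cut libraries with mock uncut 3. With all 18 libraries in the term fit, 195 of the higher and 308 of the lower genes kept their call. Genes called in the main fit and in the fit that omits the replicate, with no overlap between the libraries, are termed strict calls here, and there were 313 higher (1.91%) and 435 lower (2.66%). Of 90 genes singled out with a strict call, 25 had no call with all 18 libraries in the term fit, and that adjusted p is given beside those described. The counts leaned on single libraries. Without mock uncut 1, 2 or 3 in turn, 276, 195 and 966 genes were called higher and 525, 362 and 1501 lower. Without cut 1, 2 or 3 they were 316, 298 and 785 higher and 327, 508 and 1021 lower. A fit of the 6 libraries alone called 117 higher and 126 lower.

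**Figure D1:**
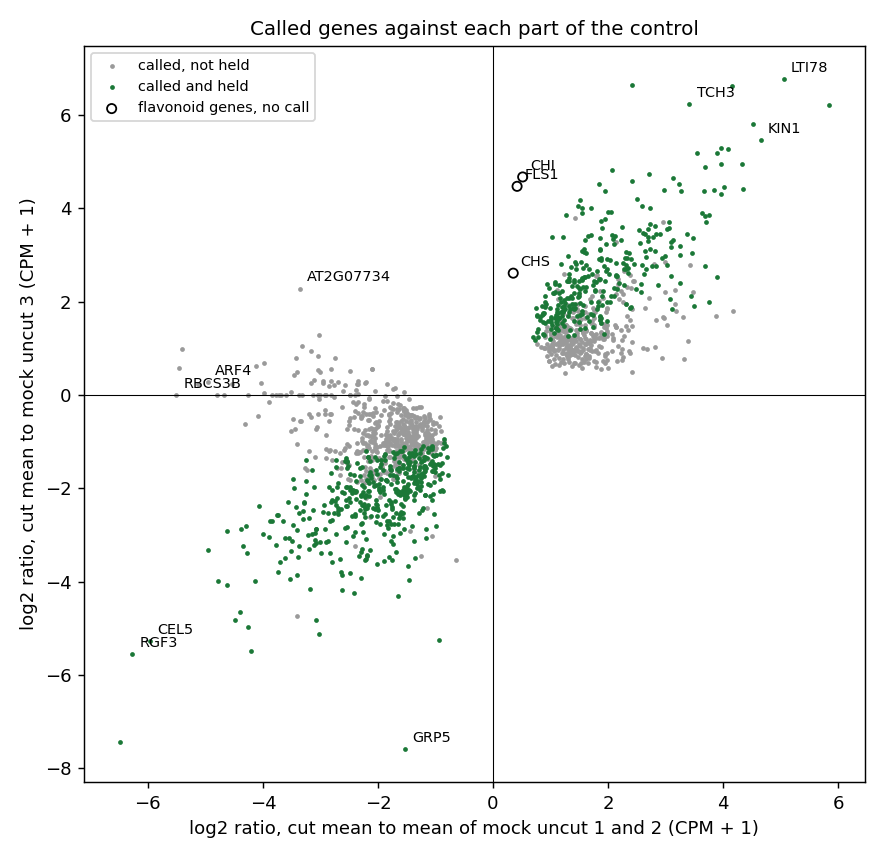
Each point is a gene called different between mock cut 3 h and mock uncut tips. The horizontal axis is the log2 ratio of the mean of the 3 cut libraries to the mean of mock uncut 1 and 2, and the vertical axis the log2 ratio to mock uncut 3 alone, both on CPM + 1. Green points are strict calls, grey points other calls. ARF4 and RBCS3B lie near the zero line of the vertical axis, and the open circles are flavonoid genes with no call that differ from mock uncut 3 alone.

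Genes for cell division were lower in cut tips. Of 29 mitotic genes tested, 21 were called lower and 0 higher, 20 of them as strict calls, with a median log2 fold change of −2.63. With the term for the column set, 21 were called lower with a median of −3.21, and with all 18 libraries in the term fit 18 were. The list holds cyclins, their kinases, and proteins of the spindle and of cell plate formation. Without cut 1, the weakest case, 10 were called lower, and without cut 2 or mock uncut 2, 14 each.

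Sequences upstream of these genes are shown because MYB3R transcription factors are known to act on mitotic genes through a short element with the core AACGG. Searched on both strands in windows from 250 bases before to 50 bases after the annotated gene start, AACGG was present in 69.0% of the 29 mitotic genes, in 32.1% of the genes called lower, in 25.2% of those called higher and in 26.8% of all 16165 tested genes with a window. At least 3 matches in the 250 bases before the start were found in 6 of the 29 mitotic genes (20.7%) and in 0.860% of all tested genes. Below are the 250 bases before the annotated start of 4 B-type cyclin genes called lower with 3 or 4 matches and of CYCB1;4, which fell as well and has 0, from the reference assembly TAIR10.1, 5′ to 3′ on the strand of the gene. CYCB1;3 and CYCB2;1, not shown, were called lower with 3 matches each, and CYCB2;4 and CYCB3;1, not shown, were called lower with 0. Capitals mark AACGG or its reverse complement. A match is a description of these letters, not evidence of a bound factor.
CYCB1;1 (chr4:17624309-17624558, minus strand): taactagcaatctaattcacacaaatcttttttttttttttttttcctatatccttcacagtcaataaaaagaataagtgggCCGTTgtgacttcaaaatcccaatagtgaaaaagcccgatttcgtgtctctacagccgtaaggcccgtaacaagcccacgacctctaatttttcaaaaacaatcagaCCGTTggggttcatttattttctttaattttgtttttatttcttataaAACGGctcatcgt
CYCB1;2 (chr5:1861704-1861953, minus strand): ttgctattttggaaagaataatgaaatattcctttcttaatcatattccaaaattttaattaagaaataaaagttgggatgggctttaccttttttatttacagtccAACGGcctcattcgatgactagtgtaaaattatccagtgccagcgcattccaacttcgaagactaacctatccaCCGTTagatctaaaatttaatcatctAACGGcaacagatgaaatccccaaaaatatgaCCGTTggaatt
CYCB2;2 (chr4:16901346-16901595, plus strand): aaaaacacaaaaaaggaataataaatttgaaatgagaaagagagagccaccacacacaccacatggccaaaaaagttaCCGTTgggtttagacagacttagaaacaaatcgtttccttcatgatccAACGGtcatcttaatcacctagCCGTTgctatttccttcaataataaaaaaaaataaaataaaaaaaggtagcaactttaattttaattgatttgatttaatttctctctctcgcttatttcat
CYCB2;3 (chr1:7137829-7138078, minus strand): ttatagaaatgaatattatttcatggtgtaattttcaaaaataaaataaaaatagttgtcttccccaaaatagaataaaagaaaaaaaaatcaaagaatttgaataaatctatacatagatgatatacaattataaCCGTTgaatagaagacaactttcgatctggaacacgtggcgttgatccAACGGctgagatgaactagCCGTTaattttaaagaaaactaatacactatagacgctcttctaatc
CYCB1;4 (chr2:11400868-11401117, plus strand): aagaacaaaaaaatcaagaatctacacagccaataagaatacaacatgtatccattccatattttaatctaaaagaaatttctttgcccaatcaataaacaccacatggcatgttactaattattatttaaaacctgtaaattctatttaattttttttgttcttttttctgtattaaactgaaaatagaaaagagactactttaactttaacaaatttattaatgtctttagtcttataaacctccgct

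CYCB2;3, a mitotic cyclin, was at 37.6, 32.8 and 27.4 CPM in mock uncut 1 to 3 and at 0.460, 1.21 and 5.02 CPM in cut 1 to 3. CYCB1;4 was at 16.4, 13.8 and 35.1 CPM in the uncut and 1.38, 0.604 and 2.79 CPM in the cut libraries. Both were higher in every uncut library, and neither call depended on 1 library. Their log2 fold changes were −3.88 ± 0.66 (SE, edgeR adjusted p = 0.00468) and −3.74 ± 0.62 (adjusted p = 0.00423). CYCB2;2 fell 12.6-fold (edgeR adjusted p = 0.00628). CYCB1;1, the cyclin most used as a reporter of dividing cells, was at 14.6, 13.8 and 23.2 CPM uncut and 0, 5.43 and 1.11 CPM cut. Its groups did not overlap, but its call (log2 fold change −3.05 ± 0.88, edgeR adjusted p = 0.0357) was lost without mock uncut 1 or 2 or cut 1 or 3, with adjusted p of 0.0595, 0.0620, 0.115 and 0.0764.

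MYB3R4, a Myb factor that activates mitotic genes, had 13.3, 14.8 and 6.44 CPM in uncut tips and 0, 1.21 and 0 CPM in cut tips. With 2 counts in the cut libraries, it was 31.5-fold lower (95% counting interval 8.49 to 264). PLE, a microtubule bundler of the phragmoplast (the array that builds the new cell wall), had 15.2, 28.1 and 9.02 CPM in uncut and 0.460, 0.604 and 0.558 CPM in cut tips. With 3 counts in the cut libraries it was 30.4-fold lower (counting interval 10.2 to 149). KN, the KNOLLE syntaxin of cell plate fusion, fell 7.67-fold from 49.7, 66.0 and 52.8 CPM to 7.37, 6.64 and 7.81 CPM. The cut values of KN lay close together and far under each control.

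The cyclin-dependent kinases did not all move in this way. CDKB2;2 was called lower (25.1 ± 14.8 CPM uncut against 4.27 ± 1.87 CPM cut, SD, n = 3), and so was CDKB2;1, whereas CDKB1;1 had no call at 33.0 ± 1.03 against 23.1 ± 3.73 CPM (edgeR adjusted p = 0.278). Of 8 D-type cyclins, which act at the entry into the cycle, 0 were called by edgeR, 2 had an unadjusted p under 0.05, and DESeq2 called 1 lower. Their median log2 fold change was −0.48. The difference between cyclin classes was not tested.

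**Figure D2:**
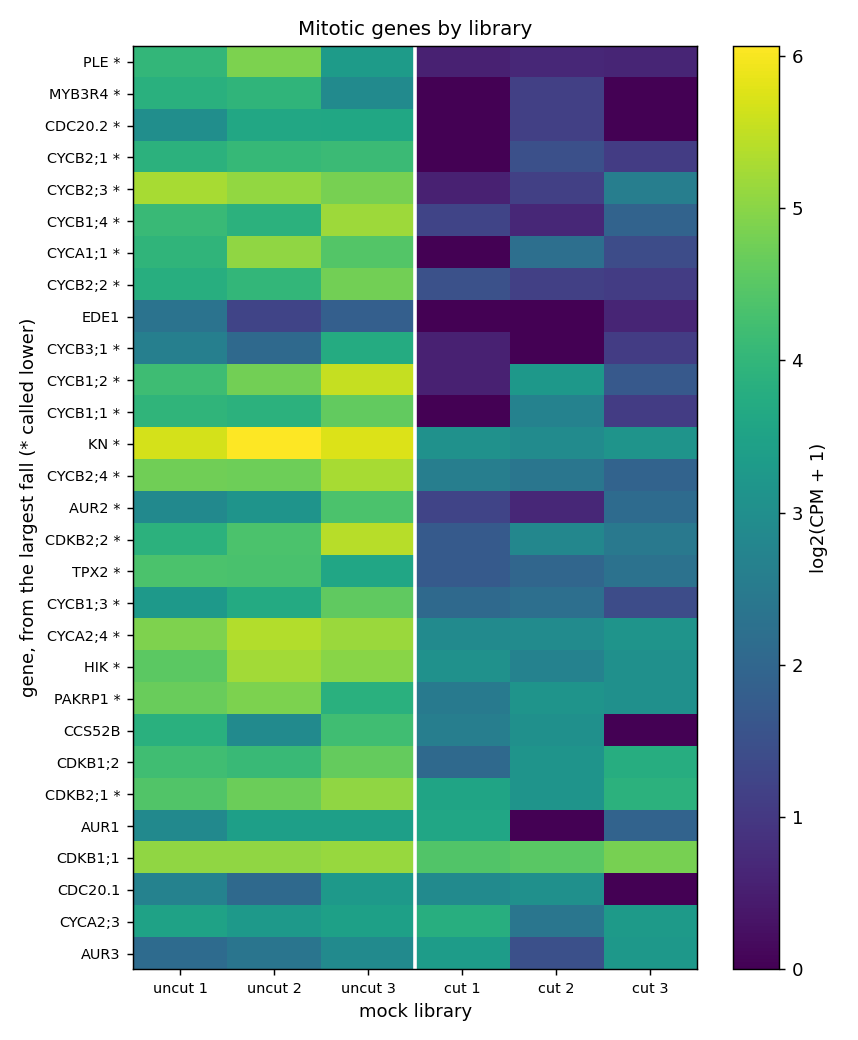
Level of each of the 29 tested mitotic genes, as log2(CPM + 1), in the 3 mock uncut (left) and 3 mock cut 3 h libraries (right). Rows run from the largest to the smallest fall and an asterisk marks genes called lower. The upper rows are bright in all uncut and dark in all cut libraries, while CDKB1;1 and the lowest rows change little.

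The motor proteins showed the same direction as a family. Among 40 tested loci whose RefSeq product name marks a kinesin or microtubule motor, a family chosen after values were seen and sharing members with the mitotic list, 17 were called lower (42.5%), 14 as strict calls, and 0 higher. ATK1, a spindle kinesin, fell from 24.9, 28.1 and 18.7 CPM to 0, 2.42 and 1.67 CPM. POK2, which guides the phragmoplast, had 37.9, 65.5 and 32.5 CPM uncut and 5.98, 4.23 and 2.79 CPM cut. Among other genes picked after their values were seen, TOPII (DNA topoisomerase II) fell 8.6-fold and MAD2, of the spindle checkpoint, 12.2-fold (edgeR adjusted p = 0.00404 for both), and neither call depended on 1 library. TOPII had 133, 216 and 117 CPM in uncut against 11.5, 19.3 and 23.4 CPM in cut tips.

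Few DNA replication genes were called. Of 21 tested, 5 were called lower, 16 had no call and 0 were higher, with a median log2 fold change of −0.94, and 1 of the 5, MCM2 of the replicative helicase, was a strict call. MCM2 had 32.1, 50.3 and 36.7 CPM in uncut and 16.6, 9.66 and 18.4 CPM in cut tips (log2 fold change −1.40 ± 0.36, edgeR adjusted p = 0.0226), and its call was lost without mock uncut 2 or cut 1 or 2 (adjusted p = 0.0790, 0.0518 and 0.0775). With all 18 libraries in the term fit, 0 members were called, and the adjusted p of MCM2 was 0.0862. The others called were MCM7, ORC1A, ORC1B and RNR1, and each lost its call without mock uncut 2, cut 1 or cut 2 (adjusted p of 0.0681 to 0.240). The count of called members was 0 without mock uncut 2 or cut 2, and 1, 2, 4 and 9 without cut 1, mock uncut 1, cut 3 and mock uncut 3. The sliding clamp genes PCNA1 and PCNA2 had no call, with log2 fold changes of −0.51 ± 0.26 and −0.27 ± 0.28. The E2F site GGCGGGAA, searched in the same windows on both strands, was present in 42.9% of these 21 genes and in 0.792% of all.

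Of 9 DNA damage response genes, PARP1 and PARP2 (poly(ADP-ribose) polymerases) were called lower. PARP2 had 16.7, 18.9 and 9.67 CPM uncut and 0, 1.81 and 3.90 CPM cut (log2 fold change −3.01 ± 0.66, edgeR adjusted p = 0.0116). The adjusted p with all 18 libraries in the term fit was 0.0694 for PARP2 and 0.0652 for PARP1. PARP1 lost its call without mock uncut 2 or cut 2 (adjusted p = 0.0790 and 0.0797). SOG1, the master regulator of that response, was at 30.2 ± 5.89 CPM uncut and 17.1 ± 2.34 CPM cut and had no call. Among 10 cell cycle inhibitors, SIM and SMR1 were called higher and KRP3 lower, none as a strict call. SIM lost its call without mock uncut 1 or 2 or cut 1 (edgeR adjusted p = 0.0726, 0.112 and 0.159), KRP3 also without cut 2 (0.0595) and SMR1 in all leave-one-out fits but the one without cut 3.

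Some genes of ribosome assembly were lower. Among 72 tested loci whose product names point to ribosomal RNA processing or nucleolar particles, a family chosen after values were seen, 21 were called lower (29.2%) and 0 higher, and 7 of the 21 were strict calls. The median log2 fold change of the 72 was −0.91. AT3G12860, annotated as NOP56-like, had 219, 259 and 112 CPM in uncut and 41.0, 41.1 and 39.0 CPM in cut tips, 4.87-fold lower (edgeR adjusted p = 0.00586, or 0.0666 with all 18 libraries in the term fit). NOP56 itself was called at 1561, 1976 and 917 CPM against 308, 721 and 631 CPM. Its call held only without mock uncut 3 among the leave-one-out fits, and without the others its adjusted p was 0.0539 to 0.152. Of 332 loci named as ribosomal proteins, 29 (8.73%) were called lower and 0 higher, nearer the 5.9% of all genes. The telo-box AAACCCTA, known from promoters of ribosome genes, was present in 27.8% of the windows of the 72 genes, 13.6% of those of genes called lower, 1.69% of those called higher and 5.92% of all. NOP56 is shown as an example, with the match 17 bases before the annotated start in capitals.
NOP56 (chr1:20986953-20987202, minus strand): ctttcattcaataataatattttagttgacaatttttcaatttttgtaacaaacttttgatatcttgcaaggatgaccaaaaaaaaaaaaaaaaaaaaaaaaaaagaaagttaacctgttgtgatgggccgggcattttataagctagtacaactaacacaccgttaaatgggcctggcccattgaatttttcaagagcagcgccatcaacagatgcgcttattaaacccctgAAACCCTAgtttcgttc

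Most tested root cap genes were lower in cut tips. Of 6, 4 were called lower, all as strict calls: SMB, BRN1 and FEZ, NAC transcription factors of cap differentiation and cap stem cells, and CEL5, a cellulase of the cap. The median log2 fold change was −4.93, or −2.84 when FEZ, at 0 counts in the cut libraries, is set to its bound against 3 counts per library. CEL5 had 204, 25.4 and 70.6 CPM in mock uncut 1 to 3 and 1.38, 0.604 and 0.558 CPM in cut 1 to 3. The controls varied widely and still did not overlap the cut tips (log2 fold change −6.76 ± 1.20, edgeR adjusted p = 0.00485). SMB had 11.8, 8.31 and 12.2 CPM uncut and 0.921, 0 and 1.11 CPM cut. FEZ, at 4.85, 2.31 and 9.99 CPM uncut, was at least 3.53-fold lower. The SMB call was lost without cut 1 or 2 (edgeR adjusted p = 0.0521 and 0.0568), that of FEZ likewise (0.0804 and 0.0669) and that of BRN1 without cut 1 (0.0557). BRN2 had no call at 25.2, 6.46 and 7.41 CPM against 8.75, 2.42 and 3.90 CPM, and the groups overlapped. Without cut 1, 1 of the 4 calls was left, and without cut 2, 2.

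Stem cell regulators went in different directions, with 1 of 14 tested called higher and 2 lower. WOX5, a homeobox factor that marks the quiescent centre, was higher in cut tips, at 27.2, 13.3 and 24.5 CPM against 0.607, 0.462 and 2.90 CPM in mock uncut 1 to 3. Its log2 fold change was 3.94 ± 0.87 (edgeR adjusted p = 0.0116), the call was kept without any 1 of the 6 libraries, and with the term for the column set the change was 2.88 (adjusted p = 0.0356). The call was lost with all 18 libraries in the term fit, where the change was 2.89 (adjusted p = 0.113). Against mock uncut 3 alone, the contrast that the term fits in effect make as well, its log2 fold change was 2.90. PLT1, an AP2 factor of the stem cell zone, was at 34.9, 22.1 and 29.6 CPM uncut and at 0, 3.62 and 0 CPM cut, 25.5-fold lower (edgeR adjusted p = 0.0130, or 0.0574 without cut 1). Cut 2 was the only cut library with a PLT1 count.

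Cut 2 was also the highest cut library for related genes. PLT2 was at 14.9, 13.8 and 9.34 CPM uncut and at 0, 10.9 and 1.67 CPM cut and had no call (edgeR adjusted p = 0.140). BBM, of the same family, had 0, 7.24 and 2.79 CPM in cut 1 to 3 against 22.1, 15.2 and 10.6 CPM, and its call (adjusted p = 0.0282) was lost with the term for the column set (0.130) and without mock uncut 1 or 2 or cut 1 or 3 (0.0909, 0.0601, 0.0618 and 0.0539). PLT3 had no call at 51.5 ± 10.2 CPM uncut and 76.7 ± 30.9 CPM cut. SCR and SHR, GRAS factors of the ground tissue and the quiescent centre, had no call, with log2 fold changes of 0.50 ± 0.43 and 0.66 ± 0.34. SCR ran from 94.8 CPM in cut 1 to 25.6 CPM in cut 3, around the uncut values of 46.1, 14.8 and 55.1 CPM.

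RGF peptides, small secreted signals that maintain PLT proteins in the meristem, were lower in part. Of 6 tested list members, RGF3, RGF2 and RGF8 were called lower, all as strict calls, and 0 higher. RGF3 had 96.4, 56.3 and 46.1 CPM in uncut tips and 0 counts in all 3 cut libraries, at least 40.9-fold lower against a floor of 3 counts per library. RGF2 had 40.9, 23.1 and 18 CPM uncut and 1 count in the cut libraries together, 158-fold lower with a counting interval of 28.1 to 6272. Neither call depended on 1 library. RGF8 was at 13.0, 13.8 and 15.1 CPM against 0, 3.02 and 2.23 CPM, and it kept its call without mock uncut 3 only (edgeR adjusted p of 0.0649 to 0.148 without the others, and 0.0798 with all 18 libraries in the term fit). RGF4 had no call (log2 fold change −2.09 ± 0.68, adjusted p = 0.0549), and neither had RGF1, at 1.94 ± 1.40 and 1.86 ± 3.22 CPM. TPST, the enzyme that sulfates these peptides, had no call at 7.93 ± 0.41 and 16.1 ± 7.72 CPM.

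**Figure D3:**
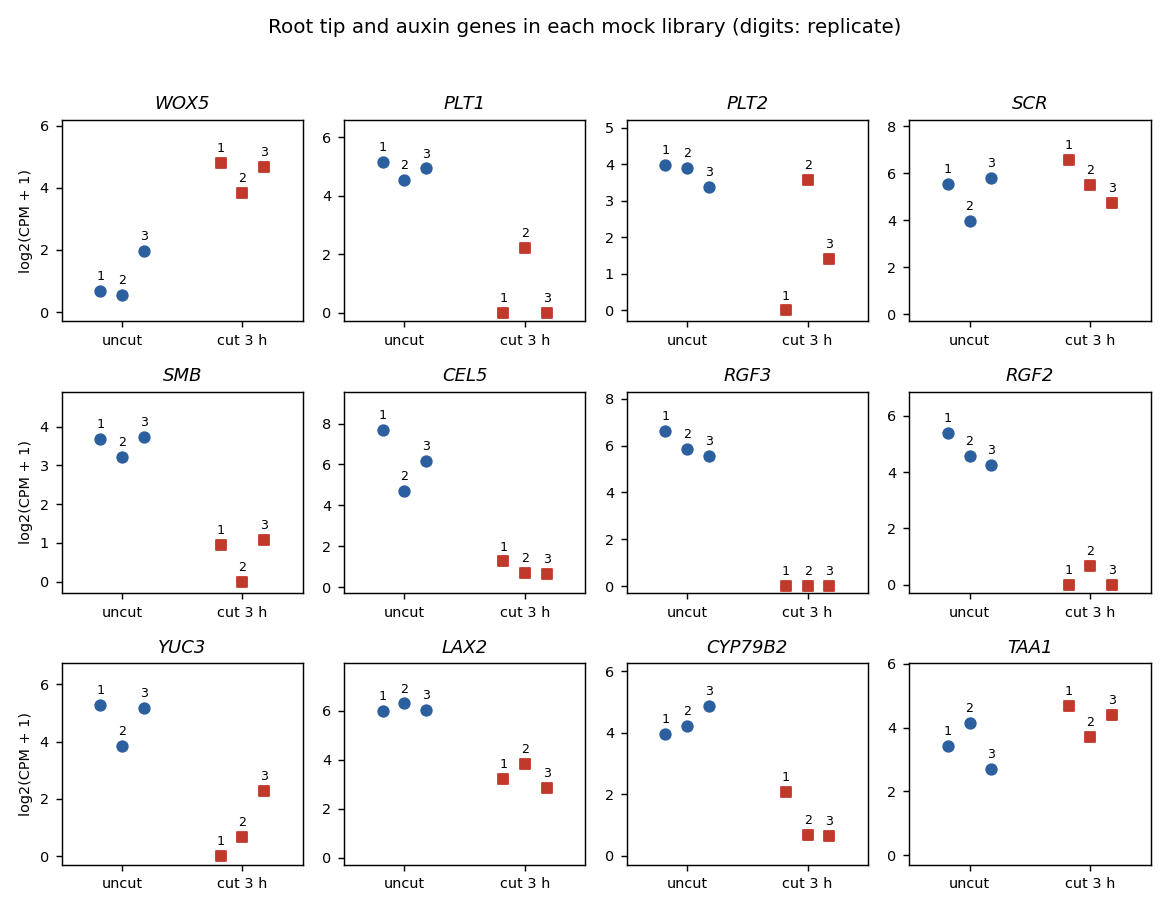
Level of 12 root tip and auxin genes as log2(CPM + 1) in each mock uncut (circles) and mock cut 3 h library (squares), with the replicate number above each point. WOX5 is higher in all cut libraries, PLT1, SMB, CEL5, RGF3, RGF2, YUC3, LAX2 and CYP79B2 are lower in all of them, and PLT2, SCR and TAA1 overlap between the groups.

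Few auxin genes were called. Of the 6 tested TAA and YUCCA genes, which make auxin from tryptophan, only YUC3 was called, and it was lower. YUC3 had 37.9, 13.4 and 35.1 CPM in uncut and 0, 0.604 and 3.90 CPM in cut tips (log2 fold change −4.29 ± 0.89, edgeR adjusted p = 0.00916), and its call was kept without any 1 library and with the term for the column set. TAA1, the target of L-Kyn, was at 9.70, 16.6 and 5.48 CPM uncut and 24.4, 12.1 and 20.07 CPM cut, which overlap (log2 fold change 0.85 ± 0.41, edgeR adjusted p = 0.182). YUC9, known to respond to wounding, was at 4.10 ± 3.43 and 2.48 ± 0.71 CPM and had no call. At these levels a YUC9 library holds few counts, and a modest change was not detectable at this depth.

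CYP79B2, a P450 that leads tryptophan towards indolic compounds, fell from 14.6, 17.5 and 28.4 CPM to 3.22, 0.604 and 0.558 CPM (log2 fold change −3.65 ± 0.73, edgeR adjusted p = 0.00797). CYP83B1 of the same route fell from 19.4, 13.8 and 76.7 CPM to 2.76, 6.64 and 8.36 CPM. Both were strict calls, and that of CYP83B1 was lost without mock uncut 3 or cut 1 or 2 (edgeR adjusted p = 0.0910, 0.0912 and 0.0598). In all, 3 of 14 tested tryptophan and indolic genes were called lower and 0 higher.

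Among 11 auxin carriers, LAX2, an influx carrier, was at 62.2, 77.5 and 64.1 CPM uncut and 8.29, 13.3 and 6.13 CPM cut, 7.37-fold lower (edgeR adjusted p = 0.00824). PIN4, an efflux carrier, was also called lower, with 36.4, 32.8 and 25.1 against 13.8, 14.5 and 11.7 CPM, but not as a strict call and, among the leave-one-out fits, only without mock uncut 3 (edgeR adjusted p of 0.0795 to 0.114 otherwise). Of 17 Aux/IAA genes, repressors that auxin commonly raises, 1 was called, IAA8, which was lower. IAA8 lost its call without mock uncut 1 or 2 or cut 1 or 2 (edgeR adjusted p of 0.106 to 0.122). The list median was −0.20. With the term for the column set, 2 Aux/IAA genes were called higher and 0 lower, and the list median was 0.24. Of 3 tested auxin inactivation genes, 0 were called by edgeR or DESeq2. All 3 had an unadjusted edgeR p under 0.05, each lower, and their median log2 fold change was −1.9.

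Of 12 auxin response factors, 2 were called higher and 2, ARF4 and ARF6, lower, and 0 were lower with the term for the column set. ARF16 and ARF7 were strict calls higher, ARF16 from 6.37, 3.23 and 3.22 CPM to 36.4, 10.9 and 8.92 CPM (log2 fold change 2.12 ± 0.54, edgeR adjusted p = 0.0231). The ARF16 call was lost without mock uncut 2 or cut 1 (adjusted p = 0.0756 and 0.175) and with all 18 libraries in the term fit (0.0668). ARF7 had 9.70, 8.77 and 4.19 CPM against 18.4, 19.9 and 16.2 CPM, and its call was lost without mock uncut 2 or 3 or cut 1 or 2 (adjusted p = 0.0691, 0.0754, 0.0725 and 0.0796). ARF4 was called lower from 47.6 and 73.8 CPM in mock uncut 1 and 2, but mock uncut 3 had 0.644 CPM, within the 0, 2.42 and 0.558 CPM of the cut libraries. Across the study, ARF4 was at 3.79 CPM or less in every library of the last 9 columns and at 37.4 CPM or more in every library of the first 9. With the term for the column set its log2 fold change was 0.45. ARF6 was at 56.8 ± 6.18 CPM uncut and 30.8 ± 5.68 CPM cut (edgeR adjusted p = 0.0483), and among the leave-one-out fits it was called without mock uncut 3 only.

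The cold and dehydration genes, a list of dehydrins and related protective proteins known to respond to abscisic acid, cold and water loss, were higher in cut tips. Of 12 tested, 9 were called higher, 8 as strict calls, and 0 lower, with a median log2 fold change of 2.36. The summed level of the 16 list members in the table was 1308, 733 and 463 CPM in mock uncut 1 to 3 and 4802, 5168 and 5512 CPM in cut 1 to 3. Leaving out 1 library gave 5 (without mock uncut 2) to 9 called members, and with mock uncut 3 alone as control there were 6. KIN1 and KIN2 are near-identical and can share reads, which makes each value uncertain.

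LTI78 (RD29A), a classical stress marker, had 2.73, 1.85 and 0 CPM in uncut and 52.0, 96.6 and 175 CPM in cut tips, a log2 fold change of 6.11 ± 1.21 (edgeR adjusted p = 0.00727). LTI30, a dehydrin, rose from 65.5, 50.3 and 17.7 CPM to 458, 788 and 816 CPM (3.95 ± 0.79, adjusted p = 0.00797). COR15A, a protein of the chloroplast stroma, had 0 counts in the 3 uncut libraries and 6.44, 4.23 and 6.69 CPM in cut tips, at least 5.32-fold higher against 3 counts per library. None of these calls depended on 1 library of the 6, but that of COR15A was lost with all 18 libraries in the term fit (adjusted p = 0.0660). HVA22D, an abscisic acid response gene outside the list, had 40.3, 41.5 and 39.0 CPM uncut and 672, 1042 and 830 CPM cut. Its controls differed little, and it was 21.0-fold higher (log2 fold change 4.40 ± 0.71). DREB2A, a transcription factor of the dehydration response, had no call at 32.2 ± 13.5 and 23.2 ± 8.12 CPM.

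GCCGAC is a form of the element through which DREB and CBF factors are known to act, and no other form was searched. On either strand it was present in 25.0% of the windows of these 12 genes (3 genes). The shares were 4.92% for genes called higher and 3.86% for all. The pair with a match in the 250 bases before the start is shown with the element in capitals. KIN1, KIN2, LTI78, COR47, ERD10, ERD14 and ERD7, which were called higher as well, have no GCCGAC in these 250 bases. ACCGAC, which differs in the first base, was not counted. On either strand, LTI78, ERD7, COR15A and LTI30 hold it there, and so does LTI65, which had no call.
COR15A (chr2:17712331-17712580, minus strand): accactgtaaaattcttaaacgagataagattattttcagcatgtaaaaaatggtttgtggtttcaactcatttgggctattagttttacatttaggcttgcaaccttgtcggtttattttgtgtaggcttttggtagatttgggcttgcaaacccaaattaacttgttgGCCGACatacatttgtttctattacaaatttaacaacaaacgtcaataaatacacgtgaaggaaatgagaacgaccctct
LTI30 (chr3:18940393-18940642, plus strand): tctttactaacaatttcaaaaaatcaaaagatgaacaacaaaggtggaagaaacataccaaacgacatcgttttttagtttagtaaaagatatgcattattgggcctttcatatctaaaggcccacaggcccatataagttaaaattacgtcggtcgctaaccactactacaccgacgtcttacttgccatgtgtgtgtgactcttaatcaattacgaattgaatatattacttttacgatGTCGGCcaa

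**Figure D4:**
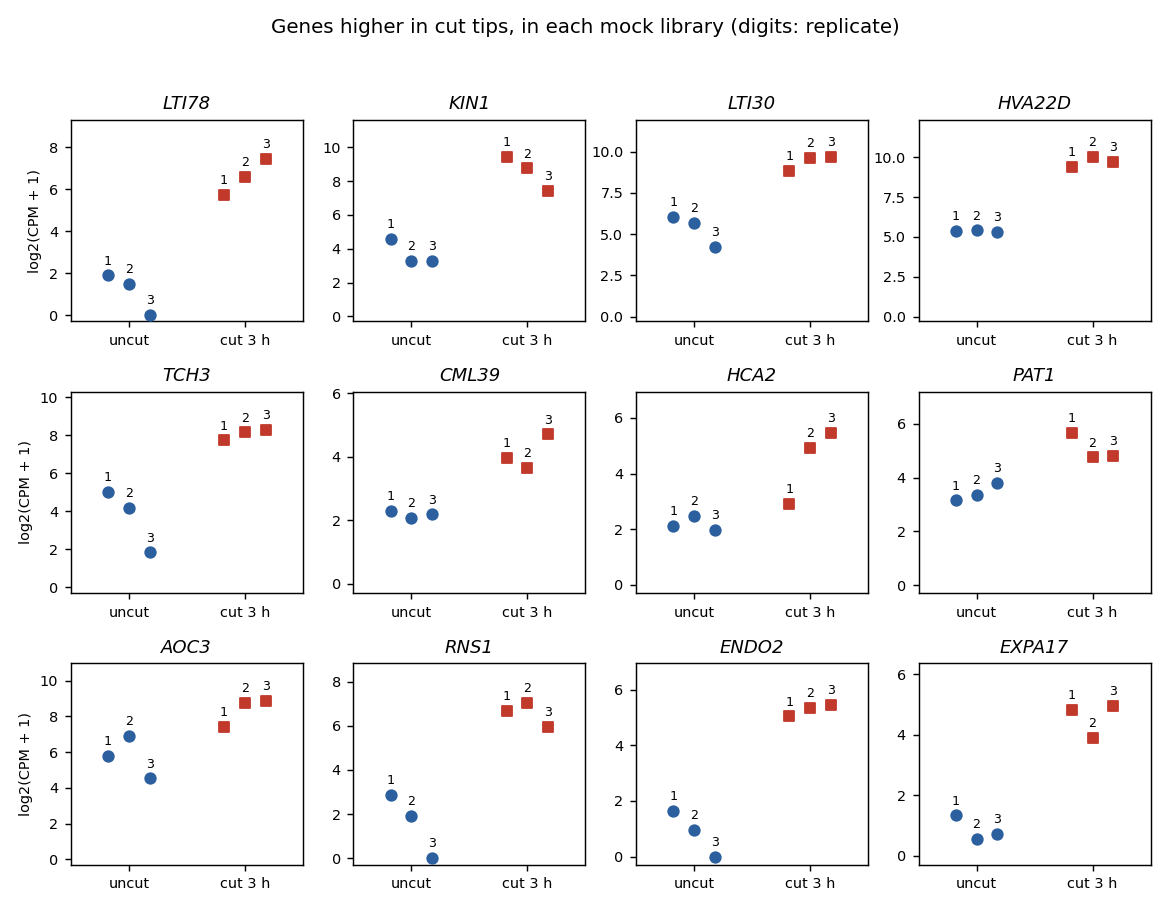
Level of 12 genes called higher in cut tips, as log2(CPM + 1), in each mock uncut (circles) and mock cut 3 h library (squares), with the replicate number above each point. Every cut library lies above every uncut library in each panel, and mock uncut 3 is at 0 for LTI78, RNS1 and ENDO2.

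Late embryogenesis abundant proteins, a family by RefSeq name chosen after values were seen, split in direction. Of 36 tested, 10 were called higher and 6 lower, 8 and 6 as strict calls. LEA14 rose from 29.1, 54.0 and 42.9 CPM to 143, 207 and 437 CPM and AT2G23120 from 203, 207 and 144 CPM to 854, 904 and 1510 CPM. AT5G60520 fell from 48.8, 42.9 and 57.7 CPM to 0.460, 0 and 2.79 CPM and AT5G60530 from 852, 556 and 476 CPM to 16.6, 47.7 and 87.5 CPM. These loci kept their calls without any 1 library. Water channels were higher where called, 5 of 19 tested and 0 lower. TIP2, a channel of the vacuole membrane, had 105, 108 and 43.5 CPM uncut and 486, 726 and 931 CPM cut (log2 fold change 3.06 ± 0.56, edgeR adjusted p = 0.00578).

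Touch and wound genes rose in part. Of 11 touch and calmodulin-like genes, which respond to calcium and mechanical stimuli, 3 were called higher and 0 lower, with a median log2 fold change of 1.60. TCH3 had 31.5, 17.1 and 2.58 CPM uncut and 211, 282 and 313 CPM cut (3.97 ± 0.93, edgeR adjusted p = 0.0154), and the call narrowly failed without mock uncut 2 (0.0520). CML39 rose from 3.94, 3.23 and 3.54 CPM to 14.7, 11.5 and 25.1 CPM, a call lost with all 18 libraries in the term fit (edgeR adjusted p = 0.0562). TCH4, a xyloglucan-modifying enzyme, was called at 2.54 ± 2.55 and 19.5 ± 9.54 CPM, but not with the term for the column set nor without mock uncut 1 or 2 or cut 1 or 2 (adjusted p = 0.127, 0.125, 0.135 and 0.0720). Across the list, 1 (without mock uncut 2) to 4 (without cut 3) members were called when 1 library was left out. The CAMTA-type element CGCGT, known from calcium-responsive promoters, was present in 27.3% of windows of these 11 genes, 13.7% of genes called higher and 9.82% of all.

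Regulators known from wounding and regeneration gave 4 calls higher and 0 lower among 12 tested. With the term for the column set, 5 were called higher and 0 lower. HCA2, a DOF factor of the vascular cambium, had 3.33, 4.62 and 2.90 CPM uncut and 6.44, 29.6 and 42.9 CPM cut (log2 fold change 2.86 ± 0.61, edgeR adjusted p = 0.0104). With all 18 libraries in the term fit, 0 members of the list were called, and the edgeR adjusted p of HCA2 was 0.0504. PAT1, a GRAS protein known to act with ERF115, rose from 7.88, 9.23 and 12.9 CPM to 50.2, 26 and 26.8 CPM in all leave-one-out fits, but its adjusted p with the term for the column set was 0.0821. NAC096 rose from 2.12, 0.923 and 2.58 CPM to 31.8, 9.66 and 10.6 CPM, a call lost without cut 1 (edgeR adjusted p = 0.0603) and with all 18 libraries in the term fit (0.0932). TMO6 was called at 47.9 ± 24.6 and 135 ± 52.8 CPM, not as a strict call, and lost its call without mock uncut 1 or 2 or cut 2 (adjusted p = 0.0672, 0.0858 and 0.0720). ERF115, a wound-induced factor of stem cell replenishment, had 0.607, 0 and 1.93 CPM uncut and 0.460, 1.81 and 2.79 CPM cut, and its difference was not detectable at this depth. WIND1, known to drive callus formation, had no call at 41.6 ± 14.0 and 56.6 ± 12.4 CPM.

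Jasmonate synthesis genes were higher where called, 3 of 9 tested (AOC3, ACX1 and AOC2), while 0 of 10 jasmonate response genes, the JAZ and MYC genes among them, were called by edgeR or by DESeq2, and 5 of these had an unadjusted p under 0.05, all higher. With the term for the column set, 3 jasmonate response genes were called higher. AOC3, an allene oxide cyclase, had 54.0, 121 and 22.2 CPM uncut and 170, 425 and 467 CPM cut (log2 fold change 2.44 ± 0.59, edgeR adjusted p = 0.0180, or 0.0596 without mock uncut 1). Close copies among the AOC genes can share reads. ACX1, of the peroxisomal steps, had 51.9, 59.5 and 89.9 CPM against 171, 165 and 208 CPM, and lost its call without mock uncut 1 or 2 (edgeR adjusted p = 0.0689 and 0.0653) and with the term for the column set (0.120). AOC2 lost its call in every leave-one-out fit (edgeR adjusted p of 0.0564 to 0.106) and with all 18 libraries in the term fit (0.0562), and the list had 0 calls without mock uncut 1 and 1 without mock uncut 2. JAZ10, a repressor that jasmonate induces, was at 0.607, 0 and 0.322 CPM and 4.14, 2.42 and 2.23 CPM (edgeR adjusted p = 0.0864). Of 11 WRKY factors 0 were called by edgeR, with 4 at an unadjusted p under 0.05, 1 was called higher by DESeq2 and 5 with the term for the column set.

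Among 17 ethylene genes tested, ACO4, which codes for an enzyme of the last step of ethylene synthesis, was a strict call lower. ACO4 fell from 32.5, 15.7 and 9.99 CPM to 1.38, 0.604 and 0.558 CPM (log2 fold change −4.40 ± 0.76, edgeR adjusted p = 0.00485), and every cut library lay under every uncut library. Its call was kept in all 6 leave-one-out fits.

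Nucleases known from dying or phosphate-starved cells were higher. RNS1, a secreted ribonuclease that wounding is known to induce, had 6.37, 2.77 and 0 CPM in uncut and 101, 132 and 60.8 CPM in cut tips (log2 fold change 4.96 ± 1.11, edgeR adjusted p = 0.0122). ENDO2, an endonuclease, rose from 2.12, 0.923 and 0 CPM to 31.8, 39.8 and 42.9 CPM (5.14 ± 1.1, adjusted p = 0.0104). Both calls were kept in every leave-one-out fit. They were the only 2 tested genes of that list.

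Cell wall genes were mixed by class. Of 16 wall loosening genes 3 expansins, EXPA17, EXPA4 and EXPA1, were called higher and XTH9 and EXPA14 lower, and without mock uncut 2 these counts were 1 and 1. EXPA1 kept its call only without mock uncut 1, and EXPA4 lost it without mock uncut 2 or cut 3 (edgeR adjusted p = 0.0585 and 0.0581). EXPA17, an expansin known from lateral root emergence, had 1.52, 0.462 and 0.644 CPM uncut and 27.2, 13.9 and 30.1 CPM cut (log2 fold change 4.63 ± 0.81, edgeR adjusted p = 0.00485). XTH9 fell from 38.5, 56.8 and 37.4 CPM to 16.1, 7.24 and 3.90 CPM, a call lost with all 18 libraries in the term fit (edgeR adjusted p = 0.0539). Over the whole expansin family by RefSeq name, 8 of 16 tested were called higher, 6 as strict calls, and 1 lower. The lower one, EXPA14, is no strict call, and it lost its call without mock uncut 2 or cut 1 or 3 (edgeR adjusted p = 0.176, 0.0905 and 0.0799).

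Other genes with the largest changes belonged to none of the lists. Among the higher, ALDH2B7, an aldehyde dehydrogenase, had 0.910, 0 and 0 CPM uncut and 9.21, 12.1 and 38.5 CPM cut. CNGC19, a calcium channel of wound signalling, had 2.43, 0.462 and 0 CPM against 31.3, 19.9 and 14.5 CPM, and its call was lost without mock uncut 2 or cut 1 (edgeR adjusted p = 0.0549 and 0.0504). PRN, a pirin protein, rose from 8.49, 6.46 and 5.16 CPM to 122, 121 and 163 CPM. AT1G12950, annotated as root hair specific 2 and listed as RSH2, rose from 1.82, 0.462 and 0.967 CPM to 22.6, 29.0 and 31.8 CPM. The calls of ALDH2B7, PRN and AT1G12950 were kept without any 1 library of the 6, and those of PRN and AT1G12950 were lost with all 18 libraries in the term fit (edgeR adjusted p = 0.0527 and 0.0648).

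Among the lower, SDG35, a SET domain protein, had 14.3, 18.9 and 14.8 CPM in uncut tips and 0 counts in the cut libraries, at least 9.87-fold lower. IQD16, a calmodulin-binding protein, fell from 27.3, 16.1 and 29.3 CPM to 0, 1.81 and 1.12 CPM. GRP5, a glycine-rich protein, had 0 counts in cut tips and 3.34, 0.462 and 190 CPM in mock uncut 1 to 3, so its fall rests on mock uncut 3, and its call was lost without that library (edgeR adjusted p = 0.147) and without cut 1 or 2 (0.0771 and 0.0646). Picked after its values were seen, AT1G50060 had 158, 19.4 and 172 CPM uncut and 0 counts cut, at least 71.8-fold lower. The other way, AT3G22910 had 3 counts in the uncut libraries and 29.0, 26 and 34.6 CPM in cut tips, 85.3-fold higher (counting interval 28.7 to 418).

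Clock genes bear on the missing time of the uncut tips. LHY, a Myb factor that peaks at dawn, was at 1.52, 0.923 and 1.61 CPM uncut and 22.1, 23.5 and 5.58 CPM cut (log2 fold change 3.59 ± 0.58, edgeR adjusted p = 0.00404), a strict call. ELF4, of the evening complex, was called lower at 42.6 ± 18.7 and 17.5 ± 3.57 CPM, not as a strict call, and lost its call without mock uncut 1 or cut 1, 2 or 3 (adjusted p = 0.144, 0.0630, 0.0616 and 0.0680). TOC1 and GI, evening genes, had no call, with log2 fold changes of −0.94 ± 0.33 and −0.73 ± 0.30. The other 13 of 15 clock genes had no call by edgeR. DESeq2 called 1 of the 15 higher and 3 lower. By edgeR, 9 of the 15 had an unadjusted p under 0.05, 3 higher and 6 lower. With the term for the column set, 2 were called higher and 0 lower. Time of day and cutting cannot be told apart here.

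Markers of other cell types were read beside these results. Of 15 genes of green tissue, which a root tip should lack, 8 were called lower, but 0 as strict calls and 0 with the term for the column set. PSAK, a photosystem I subunit outside this list, was a strict call lower, at 18.5, 4.62 and 15.5 CPM in mock uncut 1 to 3 and 0, 0.604 and 1.12 CPM in cut tips, and mock uncut 3 was high. With 3 counts in the cut libraries it was 26-fold lower (counting interval 8.69 to 128). For the list, leaving out 1 library gave 2 (without mock uncut 1, cut 1 or cut 2) to 12 (without mock uncut 3) calls. The summed level of the list was 403, 167 and 47 CPM in mock uncut 1 to 3 and 23.5, 35.6 and 34 CPM in cut 1 to 3. RBCS1A, the small subunit of Rubisco, had 91.3, 37.8 and 0 CPM in mock uncut 1 to 3 and 0.921, 0 and 0.558 CPM in cut tips. In the study as a whole it was at 0.921 CPM or less in every library of the last 9 columns and at 16.8 CPM or more in every library of the first 9. RBCS genes are near-identical and can share reads. Of 16 vascular genes SUC2 was called higher and CVP2 and ACL5 lower, none as strict calls, and each lost its call in at least 4 of the 6 leave-one-out fits. Of 11 epidermal genes MYB23 was called lower, with 16 counts in the uncut and 0 in the cut libraries and a call kept only without mock uncut 3, and of 7 endodermal genes 0 were called by edgeR (CASP1 and CASP2 were under 2 CPM in all 6 libraries) or by DESeq2, and 0 had an unadjusted p under 0.05. The part of these markers in the other results was not tested.

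Flavonoid genes show the reverse case, in which mock uncut 3 is low. None of 10 phenylpropanoid and flavonoid genes was called by edgeR or DESeq2 or had an unadjusted p under 0.05, whereas 9 were called higher with the term for the column set. CHS, chalcone synthase, had 940, 811 and 182 CPM in mock uncut 1 to 3 and 1466, 1171 and 716 CPM in cut 1 to 3. FLS1, flavonol synthase, had 451, 385 and 24.2 CPM against 504, 799 and 373 CPM. Cut tips were near mock uncut 1 and 2 and above mock uncut 3. In L-Kyn uncut 3 h tips, also in the last 9 columns, CHS was at 284 to 399 CPM and FLS1 at 46.3 to 125 CPM. The single gene called in opposite directions by both fits was AT2G07734, annotated in the ribosomal protein S4 family, with 1838, 984 and 27.4 CPM uncut and 57.1, 141 and 214 CPM cut.

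**Figure D5:**
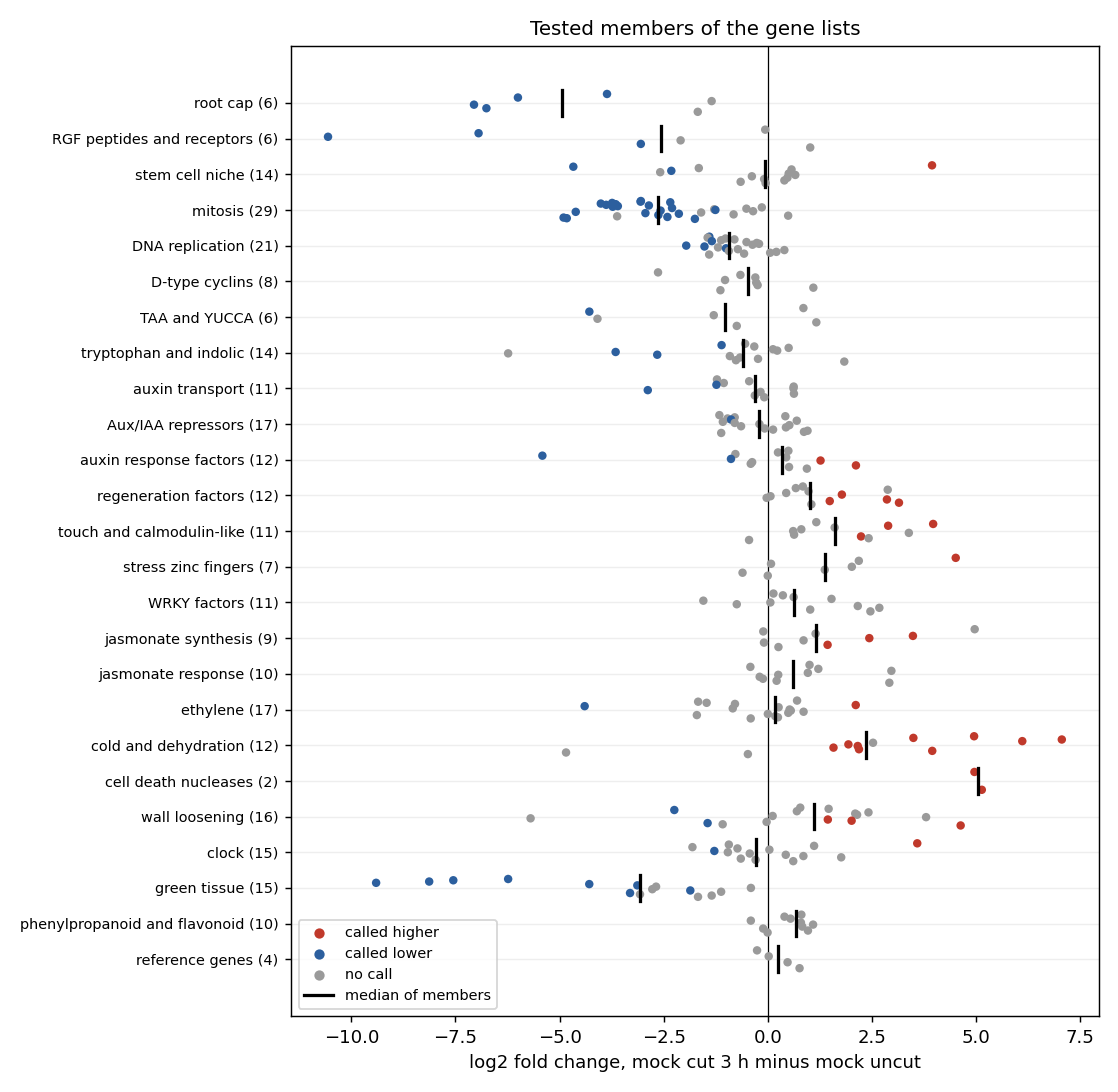
Log2 fold change (mock cut 3 h minus mock uncut) of each tested member of 25 gene lists, with the number tested in brackets. Red points are genes called higher, blue points genes called lower, grey points have no call, and the black bar is the median of the list. Mitotic and root cap members lie to the left and cold and dehydration members to the right, and the reference genes lie around 0.

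Reference genes gave no call. ACT2 was at 902 ± 213 CPM uncut and 916 ± 154 CPM cut and PP2AA3 at 143 ± 61.8 and 119 ± 55.4 CPM, and 0 of 4 were called by edgeR or DESeq2 or had an unadjusted p under 0.05. With the term for the column set PP2AA3 turned from −0.26 to 0.47, without a call. Of the 104 genes that the naming rule takes, 95 were called, and 41 of those were called in all 6 fits that leave out 1 library.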

How the data were processed

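The deposited table holds raw read counts per locus, made by the authors. The submitters' processing notes list DESeq2, HTSeq, Bowtie2 and TAIR10 without stating versions in the text used here. Library sizes and tests omit the 3 lines that name no gene; reads of low alignment quality alone were 51.0% to 75.0% of the 6 libraries compared. Columns were matched to samples by name. edgeR 4.0.16 in R 4.3.3 (TMM factors, filterByExpr, quasi-likelihood test, Benjamini-Hochberg adjustment at 0.05) was fitted to all 18 libraries with a mean for each of 7 groups, and mock cut 3 h was compared with mock uncut. The standard error is the log2 fold change divided by the root of F. Intervals and floors of 3 counts cover counting error only; copies of a read were not told apart.

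Genes named are the 15 largest changes in each direction (at least 10 CPM in the higher group, no overlap), up to 5 called members of each list and a fixed panel. The comparison, lists and rule were chosen with earlier results of these data known; families by RefSeq product name and further genes were chosen after their values were seen. Of 537 list genes matched to the reference, 405 were tested. The motif windows and sequences come from RefSeq's TAIR10.1 by its own annotation, for 16165 tested genes. Alternatives included DESeq2 1.42.0, other scaling and filters, a replicate block, a term for the column set and leaving out each library. The fit was tested on simulated data that held no column set effect and no deviating control, so that test cannot speak to either. Some items are not reported here.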

Additional observations from a re-analysis of the deposited data

How the results depend on the processing

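Of 653 genes called higher and 965 lower, DESeq2 called 990 higher (648 shared) and 1269 lower (958 shared), and the 6 libraries alone gave 117 and 126. A term for the column set gave 689 higher and 490 lower with all libraries, and 1067 higher and 839 lower without L-Kyn cut 3 h replicate 2. Mock uncut 3 as the only control gave 599 higher and 439 lower. In these 3 fits, which all compare the cut libraries with mock uncut 3 and are not separate checks, more genes were higher than lower. That is the reverse of the main balance. For the last 9 columns alone, an alternative chosen after seeing the data, there were 317 and 220. Leaving out 1 of the 6 libraries gave 195 to 966 higher and 327 to 1501 lower. With a replicate block, 542 were called higher and 818 lower. Whether equal numbers pair these libraries is not known here. The deviations of same-numbered libraries from their group means correlated at −0.0495, −0.0999 and −0.248 across genes, and those of other pairs at −0.204 to 0.298. Deviations from a mean of 3 libraries depend on each other, so these values cannot decide on pairing.

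Some named genes changed sign, and the cause was not tested. The term fits, mock uncut 3 alone and the last 9 columns all rest on mock uncut 3 as control and are not separate checks. With the term for the column set, with that term and without L-Kyn cut 3 h replicate 2, and against mock uncut 3 alone, ARF4 was at 0.46, 0.45 and 0.47 (0.50 in the last 9 columns), RBCS1A at 3.71, 3.65 and 3.71, ERF115 at −0.23, −0.23 and −0.22, WIND1 at −0.029, −0.039 and −0.018 (−0.037), PP2AA3 at 0.47, 0.47 and 0.48 (0.47) and AT2G07734 at 2.32, 2.33 and 2.33 (2.32) on the log2 scale. SCR was at −0.021 with the term and without that library and −0.017 in the last 9 columns. Leaving out 1 library gave −0.16 (without cut 1) to 0.84 for SCR, −0.71 to 0.12 (without mock uncut 2) for PP2AA3 and −1.19 to 0.046 (without mock uncut 3) for YUC9.

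Of the named genes called, 47, 38 and 20 lost the call without cut 1, 2 and 3, and 35, 40 and 9 without mock uncut 1, 2 and 3. At 1719910 to 3223903 reads on genes, genes near the floor of 3 counts rest on few reads.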

Other observations

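Heat shock genes were not part of the account above. Of 15 tested, 2 were called higher and 0 lower, both as strict calls, with a median log2 fold change of 0.94, and 5 were higher with the term for the column set. HSP17.6II, a small heat shock protein, had 1.52, 1.38 and 0 CPM in mock uncut 1 to 3 and 18.4, 27.8 and 119 CPM in cut 1 to 3. Cut 3 held the highest value. HSP23.6, the other call, was lost without mock uncut 2 or 3 or cut 3 (edgeR adjusted p = 0.106, 0.0604 and 0.257).

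Among families by product name, chosen after values were seen, 8 of 45 glutathione transferases were called higher and 0 lower, whereas of the 10 tested genes of the list of glutathione and glucosyl transferases 0 were called by edgeR or DESeq2 and 4 had an unadjusted p under 0.05. GSTF10 had 605, 313 and 437 CPM in uncut and 1779, 2302 and 1641 CPM in cut tips; close copies in this family can share reads. Of 34 aspartyl proteases 7 were called higher and 0 lower, and of 31 peroxidases 4 and 0. Of 166 pentatricopeptide proteins, which act on organelle RNA, 13 (7.83%) were called lower and 0 higher. This share is near the 5.9% of all genes called lower, and 5 of the 13 were strict calls.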
